A study of Homo sapiens with 12 samples.

Results

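Cohesin is the protein ring that encircles DNA, and its genes are described here together with those of the proteins that load it onto chromatin and release it. The set was a named list of 10 genes (NIPBL, MAU2, SMC1A, SMC3, RAD21, STAG1, STAG2, WAPL, PDS5A and PDS5B), all of which were found among the 19970 protein-coding genes on chromosomes 1 to 22 and X in the RefSeq gene table. For each gene, each protein and each replicate, peaks were counted within 1 kb of either gene end and in the gene body, taken as the stretch from gene start to gene end on GRCh38.

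The peaks came from chromatin immunoprecipitation sequencing (ChIP-seq), in which DNA bound by the target of an antibody is recovered from fixed chromatin and sequenced, in HEK293T cells, a line from human embryonic kidney. There were 5 groups of 2 libraries, one group for each of INTS13, INTS11, HDGF, ZEB1 and ZNF609. The 2 input libraries without antibody were not used here. All cells were wild type, with no treatment given in the labels. They were fixed in 1% formaldehyde for 5 min, the chromatin was sonicated for 30 min, and reads were paired and 150 bp long. The antibodies were from Proteintech (INTS13, HDGF, ZEB1) and Atlas Antibodies (INTS11), and the ZNF609 antibody had been made for an earlier study. The labels do not say that replicates were separate cultures, so the spread between them may be technical. Peak lists hold no expression levels, so the cell line was not checked against marker genes.

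Cohesin holds sister chromatids together from replication to mitosis and extrudes the chromatin loops that bring enhancers, promoters and insulators into contact. SMC1A and SMC3 are ATPases that form the ring with RAD21, and STAG1 or STAG2 binds to RAD21. NIPBL and MAU2 load the ring and drive extrusion, WAPL takes the ring off DNA, and PDS5A and PDS5B bind RAD21 and act in both holding and release. INTS13 and INTS11 are subunits of Integrator, which cleaves nascent RNA made by RNA polymerase II, with INTS11 as its endonuclease. HDGF is a chromatin protein with a PWWP domain, ZEB1 is a repressor that binds E-boxes, and ZNF609 is a zinc finger protein whose mouse counterpart is known to bind both NIPBL and Integrator.

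The 250 bases before the start are shown for NIPBL, the main loader gene, and for the 3 other genes whose upstream stretch was overlapped by peaks in the most lists. They are from the RefSeq promoter table (GRCh38.p14), written 5′ to 3′ on the gene's strand. Capitals mark matches to the GC box (GGGCGG or CCGCCC) and the CCAAT box (CCAAT or ATTGG). The stretches lie at chr5:36876519-36876768 on the plus strand for NIPBL, chr19:19320579-19320828 on the plus strand for MAU2, chr10:110567445-110567694 on the plus strand for SMC3 and chr10:86521793-86522042 on the minus strand for WAPL.
NIPBL: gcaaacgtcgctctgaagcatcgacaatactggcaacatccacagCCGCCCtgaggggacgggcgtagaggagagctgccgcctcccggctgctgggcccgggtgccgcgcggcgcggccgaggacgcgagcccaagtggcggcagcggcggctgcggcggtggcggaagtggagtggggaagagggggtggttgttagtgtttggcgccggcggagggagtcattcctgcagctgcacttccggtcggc
MAU2: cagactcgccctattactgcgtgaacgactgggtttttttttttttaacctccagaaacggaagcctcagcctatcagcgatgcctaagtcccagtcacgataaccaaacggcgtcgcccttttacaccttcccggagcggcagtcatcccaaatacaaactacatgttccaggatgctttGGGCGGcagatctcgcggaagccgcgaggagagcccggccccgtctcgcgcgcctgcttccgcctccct
SMC3: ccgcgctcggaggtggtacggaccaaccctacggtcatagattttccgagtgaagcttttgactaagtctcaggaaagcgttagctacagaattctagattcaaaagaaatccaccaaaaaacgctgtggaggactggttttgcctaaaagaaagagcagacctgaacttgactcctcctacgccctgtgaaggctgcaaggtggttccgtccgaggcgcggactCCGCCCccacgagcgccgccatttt
WAPL: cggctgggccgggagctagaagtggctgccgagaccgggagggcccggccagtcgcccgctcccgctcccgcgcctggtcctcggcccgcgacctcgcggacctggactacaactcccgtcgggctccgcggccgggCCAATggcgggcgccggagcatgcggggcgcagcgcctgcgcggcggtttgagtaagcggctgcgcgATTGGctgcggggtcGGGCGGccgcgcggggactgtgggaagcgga
The NIPBL and MAU2 stretches were both overlapped by peaks of INTS13 lists 1 and 2 and of INTS11 list 1. The SMC3 stretch was overlapped in those 3 lists and in HDGF list 1, and the WAPL stretch in INTS13 list 1, INTS11 list 1 and ZNF609 list 1. List 1 and list 2 are the peaks called in replicates 1 and 2. NIPBL and WAPL are GC-rich there (70% and 77.2% G or C), and SMC3 and MAU2 are not (52.8% and 56.8%). The median was 62% over the promoters of protein-coding genes in the table.

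The table held 12 promoters of 9 of the genes (RAD21 was not among them), each searched over 250 bases upstream and on both strands. All 12 held a GC box, as did 53.7% of the 22131 promoters of protein-coding genes searched over the same length. A CCAAT box was in 6 of 12, against 32.7% of all, and these were promoters of STAG1, STAG2, WAPL, PDS5A and PDS5B. The 12 are not independent, since STAG2 has 3 of them and SMC1A has 2, whose stretches overlap and share GC boxes. The E-box CACCTG (or CAGGTG), the sequence ZEB1 is known to bind, was in 0 of 12 and in 17.1% of all promoters. These are letter matches in 1 window and say nothing of binding.

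The 10 lists held between 26409 peaks (ZNF609 list 2) and 416964 peaks (INTS13 list 1) and covered from 22.1 to 351 Mb, with median widths of 402 to 655 bp. Read depths are unknown, so no interval for counting error is given. A reproducible region is a merged stretch that holds a peak of both lists of a protein, with an overlap of at least 1 bp. Peaks of all the proteins crowd into the same parts of the genome: 382 of 3043 bins of 1 Mb had a median density over the 10 lists more than 2 times the mean bin. SMC3, STAG2 and WAPL lie in such dense bins, at 2.75, 3.18 to 4.34 and 2.73 times the mean bin. The others were at 1.54 (MAU2), 0.521 (SMC1A), 0.476 (STAG1), 0.191 to 0.295 (NIPBL), 0.186 (PDS5B), 0.0689 (RAD21) and 0 (PDS5A). The median bin was itself at 0.173 times the mean bin, and of the 10 genes only RAD21 and PDS5A lay below it.

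INTS13 had reproducible regions at an end of 8 of the 10 genes, all but PDS5A and PDS5B, while INTS11 had them at 4, HDGF at 1, and ZEB1 and ZNF609 at 0. Over all protein-coding genes the shares were 63.7% (INTS13), 17.5% (INTS11), 22.2% (HDGF), 3.79% (ZEB1) and 1.57% (ZNF609). The HDGF count depended on the window: it was 0 within 500 bp of an end (16.4% of all genes) and 8 within 5 kb (38.2%). The INTS11 genes were MAU2, SMC3, STAG2 and WAPL, and the HDGF gene was SMC3. SMC3 thus carried 3 proteins at its ends (as 8.05% of all genes did), WAPL, MAU2 and STAG2 carried 2 (16.8%), and NIPBL, SMC1A, RAD21 and STAG1 carried INTS13 alone (1 protein: 36.4%). PDS5A and PDS5B carried 0 (35.3%).

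In single lists the counts at ends varied more. INTS13 peaks lay there at 8 of the genes in each list (79.5% and 68.1% of all genes). The 8 were not the same, with PDS5B among them in list 1 alone and RAD21 in list 2 alone. INTS11 peaks lay there at 5 in list 1 and 4 in list 2 (50% and 22.2%). HDGF reached 4 in list 1 and 1 in list 2 (38.5% and 34.6%), ZEB1 3 and 2 (13.3% and 8.48%), and ZNF609 1 and 0 (7% and 3.44%).

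Density of the surroundings moved with these counts. Among genes in dense bins 95.3% had an INTS13 region at an end, and among other genes 54.3% did. For INTS11 the shares were 56.2% and 5.82%. Of the 3 cohesin genes in dense bins, 3 had an INTS13 region and 3 an INTS11 region at an end; of the other 7, 5 had an INTS13 region and 1 (MAU2) an INTS11 region. The part of this density in the counts was not tested. Beyond it, the end windows of all the genes but PDS5A hold another gene. NIPBL, STAG1, WAPL and PDS5B have divergent noncoding transcripts (NIPBL-DT, STAG1-DT, WAPL-DT and PDS5B-DT). STAG2 has STAG2-AS1, MAU2 has SUGP1 and LOC124904656, and SMC1A has RIBC1. SMC3 has the noncoding LOC105378483, and RAD21 has LOC112268030, RAD21-AS1 and MIR3610. A peak in such a window cannot be given to one of the genes.

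**Figure D1:**
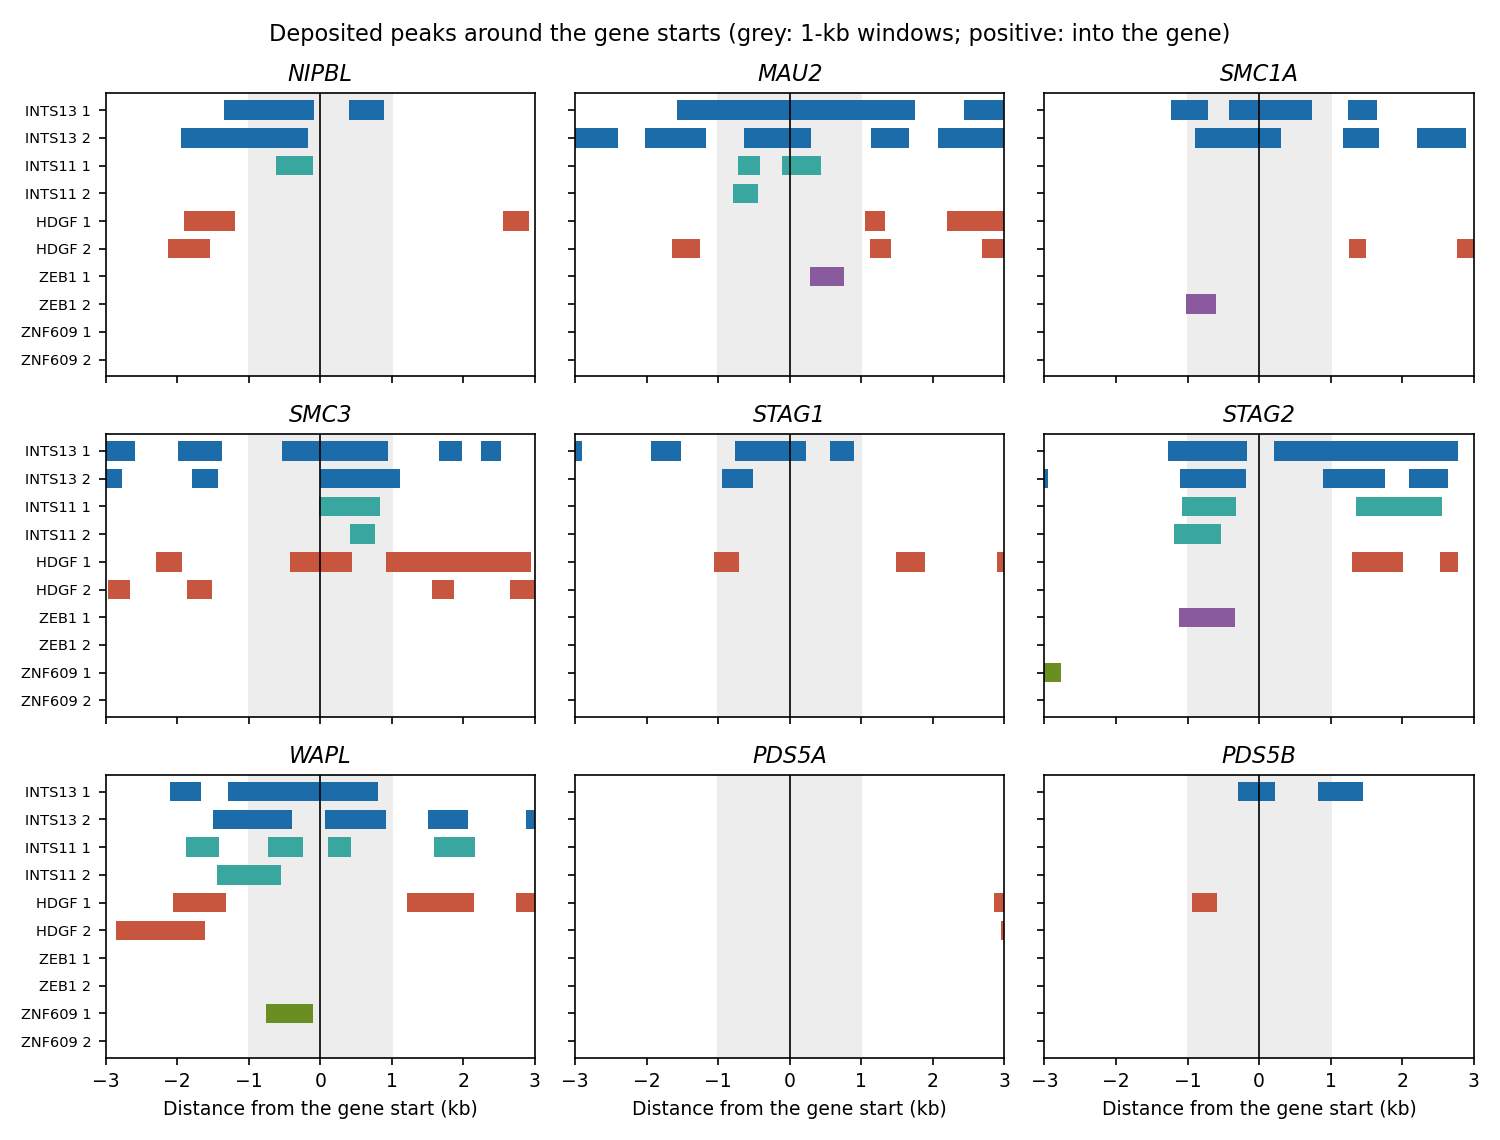
Peaks around the starts of 9 genes, 1 row per protein and replicate. The x axis is distance from the gene start in kb, positive into the gene, the bars are peaks to scale, and grey marks the 1-kb windows. INTS13 (blue) had peaks of both lists in the window at 7 of the 9 starts, INTS11 (teal) at MAU2, SMC3, STAG2 and WAPL, and the PDS5A window was empty.

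The start of NIPBL (chr5:36876769-37066413), which loads cohesin, carried INTS13 in both lists. INTS13 list 1 had a peak from 1342 to 87 bp upstream with a fold over background of 2.86 and another from 406 to 886 bp inside the gene with a fold of 3.29. Folds are the authors' values for each peak and are ranked only within a list: the second peak was at the 95.4th percentile of its list. INTS13 list 2 had 1 peak, from 1954 to 176 bp upstream, with a fold of 2.22 at the 62.0th percentile. INTS11 list 1 had a peak from 619 to 103 bp upstream (fold 2.20), inside the merged INTS13 region, and INTS11 list 2 had none in the window. No HDGF, ZEB1 or ZNF609 peak lay within 1 kb of either end of NIPBL. A reproducible HDGF region did overlap the merged INTS13 region at the start, but more than 1 kb upstream of the gene.

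The body of NIPBL, 189.6 kb long, was sparsely covered. INTS13 had 13 peaks there in list 1 and 8 in list 2, or 6.85 and 4.22 per 100 kb, at the 26.3rd and 27.7th percentiles of all genes. HDGF had 11 and 8, near the middle of all genes (51.8th and 54.0th percentiles). INTS11 had 0 and 0, ZEB1 1 and 0, and ZNF609 1 and 0. INTS13 alone had regions found in both lists in the body, 4 of them, at 8.44 to 9.72 kb, 27.4 to 27.8 kb, 96.7 to 97.1 kb and 136.7 to 137.4 kb from the start. The ZNF609 peak was 177 kb from the start, with a fold of 2.58 at the 46.8th percentile of its list. ZNF609 list 2 held no NIPBL peak.

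MAU2 (chr19:19320829-19358754), the partner of NIPBL in the loader, was the gene most fully covered by INTS13. INTS13 peaks numbered 14 and 19 and covered 53.6% and 46.0% of the gene, at the 79.2nd and 78.4th percentiles. At its start INTS13 list 1 had a single peak reaching from 1580 bp upstream to 1756 bp inside, and list 2 a peak from 637 bp upstream to 300 bp inside. INTS11 list 1 had peaks from 730 to 413 bp upstream and from 109 bp upstream to 434 bp inside, and list 2 a peak from 790 to 445 bp upstream. Both loader genes had Integrator peaks just before the start, reproducible for INTS13 at both and for INTS11 at MAU2.

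In the MAU2 body INTS11 had 7 and 2 peaks, with no region in both lists. HDGF had 16 and 13, covering 22.6% and 14.5% of the gene, with 5 regions in both lists, of which 4 overlapped an INTS13 region. ZEB1 had 3 and 1 peaks, of which list 1 had 1 at the start and list 2 had 1 at the 3′ end, so that neither end was shared. ZNF609 had 0 and 0.

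SMC1A (chrX:53374149-53422728), the ATPase arm that pairs with SMC3, had INTS13 at both ends in both lists. Body peaks of INTS13 numbered 15 and 17, or 30.9 and 35.0 per 100 kb. Its start carried a list 1 peak from 427 bp upstream to 742 bp inside and a list 2 peak from 895 bp upstream to 303 bp inside. INTS11 had 4 and 2 body peaks, the highest at the 37.6th percentile of fold in list 1 and the 9.53rd in list 2, and 0 at the ends. HDGF had 9 and 8 body peaks and 0 at the ends, and ZNF609 had 0 and 0 in the body and 0 at the ends. ZEB1 had 0 and 1 body peaks, and ZEB1 list 2 had a separate peak from 1019 to 601 bp upstream of the start (fold 2.67).

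SMC3 (chr10:110567695-110606048), the other ATPase, had INTS13 and INTS11 on its start in all 4 lists. INTS13 list 1 had a peak from 541 bp upstream to 948 bp inside with a fold of 3.46 (97.0th percentile), and list 2 a peak from 11 bp upstream to 1116 bp inside with a fold of 2.61 (89.1st). INTS11 list 1 had a peak from 24 bp upstream to 827 bp inside with a fold of 2.76 (93.3rd), and list 2 a peak from 420 to 760 bp inside with a fold of 2.38 (70.0th). All 4 peaks overlap in the first kb of the gene, downstream of the stretch printed above, which the 3 longer peaks just reach or cross.

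HDGF at the SMC3 start was in list 1 alone. HDGF list 1 had peaks from 418 bp upstream to 436 bp inside and from 916 to 2942 bp inside; list 2 began further in, and a merged region from 916 to 3941 bp inside is what counts as reproducible at this end. Inside SMC3, HDGF was the densest protein, with 21 and 15 peaks covering 32.7% and 24.3% of the gene (92.0th and 91.3rd percentiles). INTS13 had 8 and 8, INTS11 9 and 3, ZEB1 2 and 1, and ZNF609 1 and 1. The 2 ZNF609 peaks met in a region 20.3 to 21.4 kb from the start, which also overlapped an HDGF region.

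RAD21 (chr8:116845934-116874776), the subunit that closes the ring, was unlike the SMC genes: INTS13 had 0 and 0 peaks in its body, as did INTS11, ZEB1 and ZNF609. HDGF had 8 and 5, or 27.7 and 17.3 per 100 kb. A gene strand was not in the table used, so its ends are called by coordinate. INTS13 list 2 had a peak from 1678 to 731 bp outside the lower end, with a fold of 1.76 at the 4.90th percentile of its list, and the list 1 peak it met lay beyond the 1-kb window. The single reproducible HDGF region lay 1.16 to 1.93 kb inside that same end.

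**Figure D2:**
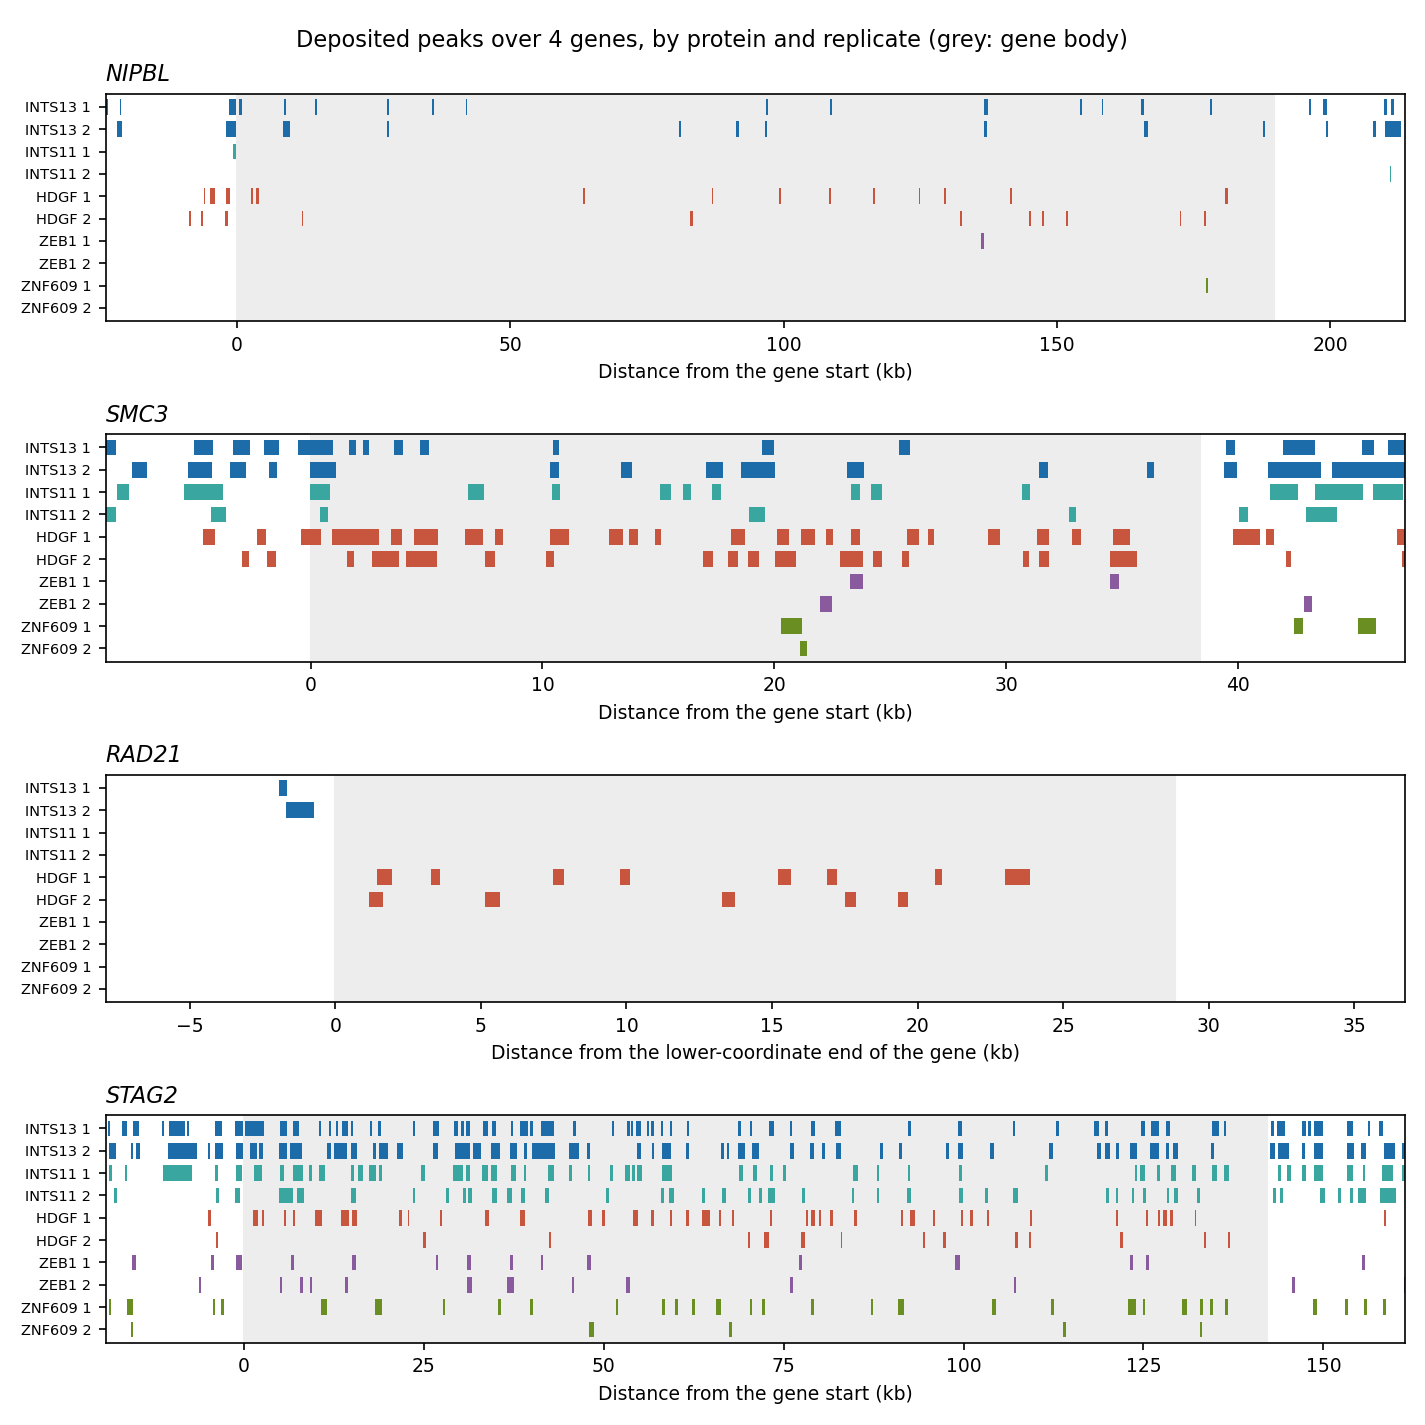
Peaks of every list over NIPBL, SMC3, RAD21 and STAG2 and beyond their ends. The x axis is distance from the gene start (RAD21: from the lower-coordinate end) in kb, each row is 1 protein and replicate, bars are peaks to scale, and grey is the gene body. RAD21 held HDGF peaks (8 and 5) and no others in its body, while STAG2 held peaks of all 10 lists.

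STAG1 (chr3:136336236-136752378) and STAG2 (chrX:123960560-124102656) encode the alternative subunits that bind RAD21, and their peaks differed widely. INTS13 had 42 and 39 body peaks at STAG1, a gene of 416 kb, and 48 and 45 at STAG2, of 142 kb: 10.1 and 9.37 per 100 kb against 33.8 and 31.7. INTS11 had 7 and 2 at STAG1 and 40 and 33 at STAG2, or 1.68 and 0.481 per 100 kb against 28.1 and 23.2. HDGF had 30 and 18 at STAG1 and 40 and 13 at STAG2. STAG2 lies in dense bins and STAG1 does not.

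The STAG1 start held the peak with the highest fold rank of all INTS13 list 1 peaks in the bodies of the 10 genes. It ran from 770 bp upstream to 233 bp inside, with a fold of 3.72 (98.4th percentile). In INTS13 list 2 the window held a peak from 952 to 517 bp upstream with a fold of 1.89 at the 18.2nd percentile. The peaks of the 2 lists overlapped only in part, with summits 97 bp upstream in list 1 and 765 bp upstream in list 2, and differed in height. HDGF list 1 had a peak from 1064 to 711 bp upstream, and INTS11, ZEB1 and ZNF609 had none at either end.

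STAG2 held the most INTS11, ZEB1 and ZNF609 peaks of the 10 genes. At its start INTS13 list 1 had a peak from 1273 to 172 bp upstream and list 2 one from 1108 to 184 bp upstream, INTS11 list 1 one from 1083 to 322 bp and list 2 one from 1189 to 528 bp upstream. A ZEB1 list 1 peak lay at 1115 to 337 bp upstream, within the same stretch, and ZEB1 list 2 had none there. INTS13 list 1 also had a peak from 213 to 2784 bp inside, with a fold of 3.38 (96.3rd percentile). It overlapped an INTS13 list 2 peak from 891 to 1763 bp inside, with a fold of 2.16 (54.3rd). In the body 15 INTS11 regions were found in both lists, of the 19 found over all 10 bodies. ZEB1 had 11 and 10 body peaks and the only 2 ZEB1 regions found in both lists over the 10 genes, at 31.0 to 31.7 kb and 36.6 to 37.5 kb from the start; both overlapped INTS13 and INTS11 regions. ZNF609 had 23 and 4 body peaks, with 1 region in both lists at 132.8 to 133.3 kb.

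WAPL (chr10:86435256-86521792), the release factor, had INTS13 and INTS11 at its start in all 4 lists. INTS13 list 1 had a peak from 1285 bp upstream to 810 bp inside, and list 2 had peaks from 1504 to 394 bp upstream and from 68 to 923 bp inside. INTS11 list 1 had peaks from 734 to 236 bp upstream and from 103 to 429 bp inside, and list 2 a peak from 1444 to 551 bp upstream. ZNF609 list 1 had a peak from 757 to 109 bp upstream (fold 2.70, 60.4th percentile), the only ZNF609 peak within 1 kb of an end of any of the 10 genes. ZNF609 list 2 had none there.

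Body peaks at WAPL were numerous for both Integrator subunits, with 25 and 26 of INTS13 and 18 and 11 of INTS11, and most numerous for HDGF, with 37 and 27. ZEB1 had 1 and 2, and ZNF609 4 and 2. HDGF covered 28.0% and 15.2% of WAPL, with 15 regions found in both lists, the most of the 10 genes. SMC3 followed with 10, MAU2 with 5, STAG1 with 3, SMC1A with 2, and RAD21, STAG2 and PDS5A with 1.

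PDS5A (chr4:39822863-39977911) and PDS5B (chr13:32586452-32778019), paralogs that bind RAD21 and modulate release, carried few peaks for their length. PDS5A had 3 and 2 HDGF peaks in its 155 kb and 0 of every other protein in both lists. Its 1 HDGF region lay 2.86 to 3.26 kb inside the start, and the other list 2 peak ended 871 bp before the 3′ end. PDS5B had 8 and 2 INTS13 peaks, 4 and 0 INTS11 peaks, 9 and 3 HDGF peaks, 0 and 1 ZEB1 peaks and 1 and 0 ZNF609 peaks. INTS13 list 1 had a peak across the PDS5B start, from 298 bp upstream to 221 bp inside, and HDGF list 1 had one from 940 to 592 bp upstream; list 2 of either protein had none there. The PDS5A bin was at 0 times the mean bin in the median list and the PDS5B bin at 0.186, beside 0.173 for the median bin.

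**Figure D3:**
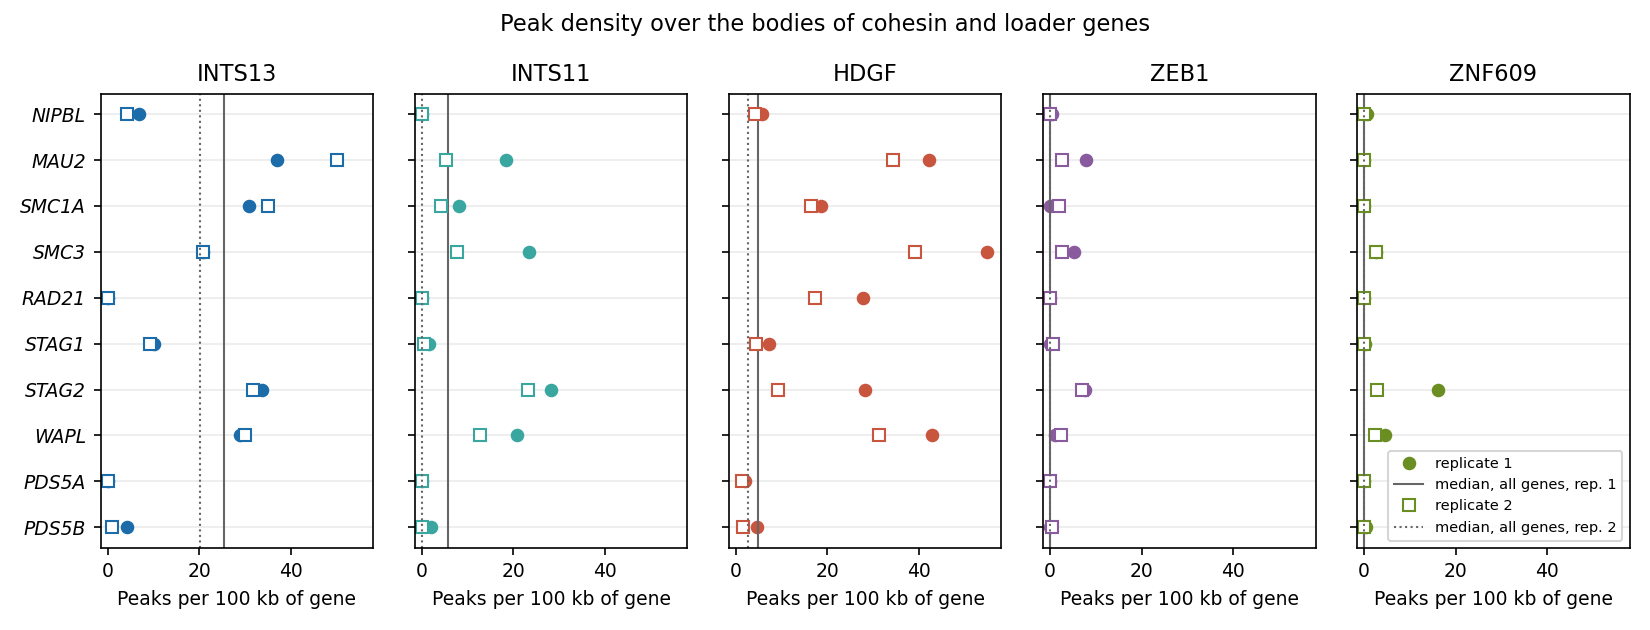
Peaks per 100 kb of gene body for the 10 genes, 1 panel per protein. Filled circles are replicate 1 and open squares replicate 2, and the solid and dotted lines are the medians of all protein-coding genes in replicates 1 and 2. For HDGF, 8 of the 10 genes lay above the line of the replicate in both replicates, and PDS5A and PDS5B lay below it.

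HDGF peaks lay in the bodies of all the genes, in both lists. All 10 genes had an HDGF peak in the body in each list, where 61.5% and 57.4% of all protein-coding genes did, as did 73.4% and 69% of the genes of 50 kb or longer. INTS13 peaks were in 8 bodies in each list (85% and 79.5% of all genes), and INTS11 peaks in 7 and 6 (65.8% and 42.2%). ZEB1 peaks were in 5 and 7 (27.6% and 21.8%), and ZNF609 peaks in 6 and 3 (20.5% and 12.1%). The median of the 10 genes was 23.1 peaks per 100 kb in list 1 against 4.90 over all genes, and 12.8 against 2.66 in list 2. The genes of 50 kb or longer had medians of 3.63 and 2.30. With the peaks and lengths of all genes pooled, so that long genes weigh more, the gap was smaller: 13.8 HDGF peaks per 100 kb at the 10 genes against 8.38 in list 1, and 8.39 against 6.49 in list 2.

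For INTS13 the direction turned with the genes it was set against. The medians of the 10 genes, 15.5 and 15.1 peaks per 100 kb, lay below those of all genes (25.5 and 20.3) and above those of genes of 50 kb or longer (14.5 and 11.9), and the pooled densities were 13.0 against 18.2 and 12.3 against 14.9. INTS11 medians were 5.16 against 5.84 and 2.30 against 0, while the pooled INTS11 densities were below those of all genes in both lists, at 6.67 against 8.52 and 3.97 against 4.42. ZEB1 medians were 0.264 and 1.39, and ZNF609 medians 0.381 and 0, each against 0 over all genes. Pooled, ZEB1 had 1.35 against 2.10 and 1.42 against 1.73, and ZNF609 2.32 against 1.75 and 0.524 against 0.911.

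Reproducible regions in the body were found for HDGF in 8 of the 10 genes, all but NIPBL and PDS5B (38.5% of all genes, and 44.1% of those of 50 kb or longer, to which 6 of the 10 belong). INTS13 had them in 8, all but RAD21 and PDS5A (73.2% and 80.1%). INTS11 had them in 4, SMC3, STAG1, STAG2 and WAPL (26% and 31.4%), ZEB1 in 1, STAG2 (6.69% and 9.68%), and ZNF609 in 2, SMC3 and STAG2 (3.66% and 6.25%). The INTS13, INTS11 and ZEB1 counts were near the background, and those of HDGF and ZNF609 were above it, that of ZNF609 on 2 genes. Of the 4 INTS11 genes all but STAG1 lie in dense bins, as do both ZNF609 genes. In dense bins 70.6% of all genes had an INTS11 region in the body (12.7% elsewhere). For HDGF it was 71.6% (28.5%) and for ZNF609 15.4% (0.130%). The part of this density in the counts was not tested. With peaks of −log10 q of 5 or more the HDGF count was 0 (3.93% of all genes), and it was also 0 with the 10000 peaks of highest −log10 p in each list (5.40%).

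Each body was then set against its own surroundings, 500 kb on either side, a comparison added after the peaks had been seen. In HDGF list 1 all 10 bodies held more peaks per 100 kb than their flanks, which 46.3% of all genes did. In list 2 it was 9, all but PDS5B (43.8%), and 9 genes were above in both lists (36.8%). With peaks of −log10 q of 5 or more it was 0 (5.03%). The median difference between body and flank was 18.8 peaks per 100 kb in list 1 and 10.5 in list 2, against 0 and 0 over all genes. For INTS13, 1 gene was above its flanks in list 1 and 2 in list 2 (54.9% and 51.8% of all genes), with SMC1A in both (41.9%).

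RAD21 showed the contrast most plainly. Its body of 28.8 kb held 8 HDGF peaks in list 1 and 5 in list 2, while the 1 Mb of flanks held 7 and 4. SMC1A had 18.5 HDGF peaks per 100 kb in the body and 2.30 in the flanks in list 1, and 16.5 and 1.5 in list 2, although chromosome X carried 1.39% and 1.28% of the peaks of the HDGF lists. STAG2 had 28.1 against 5.30 in list 1 and 9.15 against 3.20 in list 2. In dense surroundings the difference held too: SMC3 had 54.8 against 22.8 and 39.1 against 15.8, and WAPL 42.8 against 13.9 and 31.2 against 11.2.

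By the size of this difference, the HDGF values of SMC3, WAPL, RAD21, MAU2 and SMC1A lay between the 81.4th and 92.9th percentiles of all genes in both lists. Those of STAG1 and NIPBL were between the 55.6th and 62.6th, and PDS5A was at the 58.4th and 58.6th. STAG2 was at the 87.3rd in list 1 and the 71.9th in list 2, and PDS5B at the 60.6th and the 45.7th. NIPBL had 5.80 peaks per 100 kb against 5.20 in its flanks in list 1 and 4.22 against 2.40 in list 2. INTS11 bodies lay above their flanks at 3 genes in each list (43.8% and 30.4% of all genes), with MAU2 and SMC1A in both (21.2%). ZEB1 did so at 3 and 5 genes (21.1% and 16.7%), with MAU2 in both (8.24%), and ZNF609 at 5 and 2 (15.7% and 9.19%), with WAPL in both (4.9%).

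**Figure D4:**
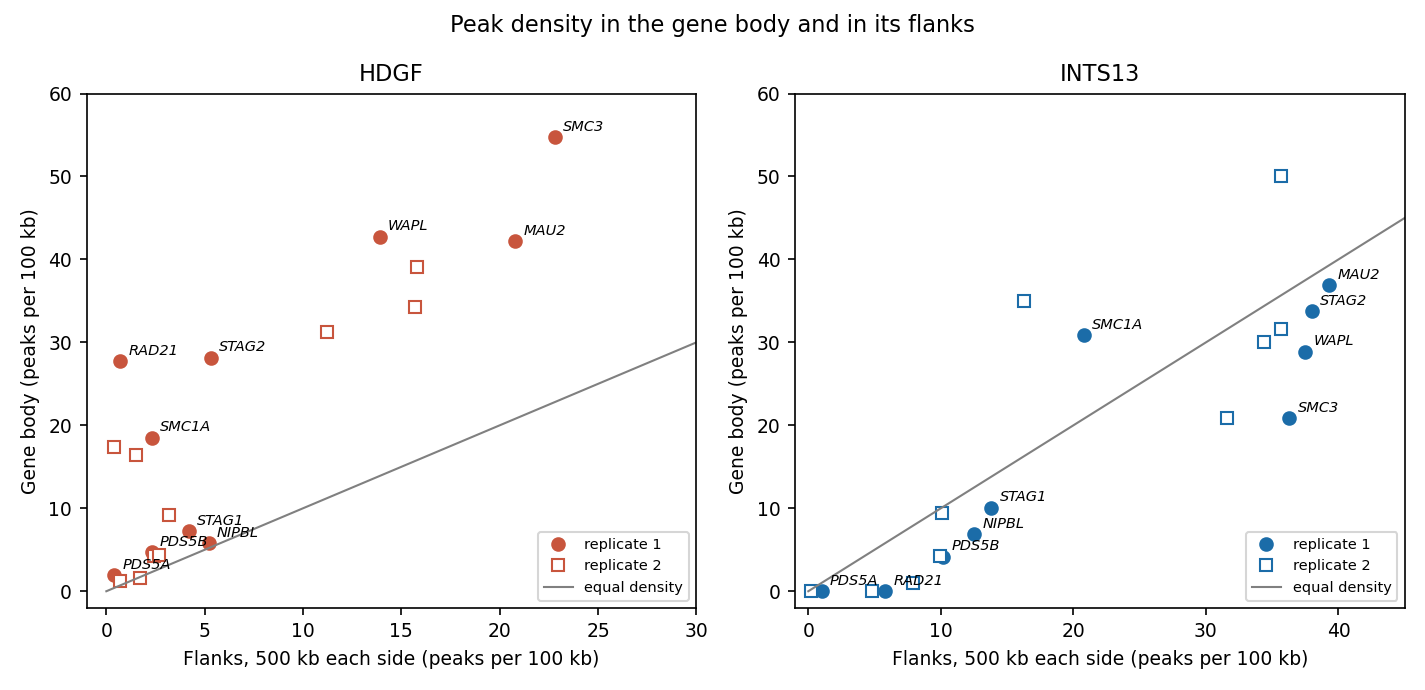
Peak density in the body of each of the 10 genes (y axis, peaks per 100 kb) against that in the 500 kb on either side (x axis, peaks per 100 kb), for HDGF and INTS13. Filled circles are replicate 1, open squares replicate 2, and the line marks equal density; the x axes differ. For HDGF all circles and all squares but that of PDS5B lie above the line, whereas for INTS13 1 circle (SMC1A) and 2 squares (MAU2 and SMC1A) do.

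Pooled summit densities of INTS13 and HDGF were higher in the first 5 kb than over the whole gene. Each gene weighs the same in the first 5 kb, whereas long genes weigh more over the body. The ratios therefore mix a place near the start with a higher density in shorter genes, and these were not separated. Over the 9 genes with a known strand, INTS13 summits in the first 5 kb were 2.75 and 2.34 times as dense as over the whole body in lists 1 and 2, and HDGF summits 2.49 and 2.98 times. For protein-coding genes of 50 kb or longer the ratios were 1.55 and 1.44 for INTS13 and 2.09 and 2.34 for HDGF. The sets differ in length, since MAU2, SMC3 and SMC1A among the 9 are shorter than 50 kb. INTS11 ratios were 1.63 and 1.10, with 5 and 2 summits in the first 5 kb, against 1.68 and 1.33. ZEB1 had 1 of 18 summits there in list 1 and 0 of 18 in list 2, and ZNF609 had 0 of 31 and 0 of 7. Within 1 kb of the start, reproducible regions were found at 7 of 9 genes with INTS13 (60.1%), 4 with INTS11 (15.2%), 1 with HDGF (15.4%) and 0 with ZEB1 (3.09%) or ZNF609 (1.16%). At 3′ ends INTS13 had them at MAU2, SMC1A, STAG2 and WAPL (43.4%), and the other 4 proteins at 0 (INTS11 10.4%, HDGF 14.9%, ZEB1 2.21%, ZNF609 1.08%).

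A smaller share of HDGF regions met Integrator regions in these genes than over the genome, as a description with no test. Of 38 HDGF regions on the 10 genes with 1 kb added at both ends, 14 (36.8%) overlapped an INTS13 region, while 76.6% of all HDGF regions did. None of the 38 overlapped an INTS11 region, against 44.3% of all HDGF regions. Seen from INTS13, 15 of its 94 regions (15.96%) met an HDGF region, against 13.1% of all INTS13 regions. Of 22 INTS11 regions 1 (4.55%, against 27.4% of all) met an HDGF region, at the WAPL start and more than 1 kb from the gene, and 15 (68.2%) overlapped an INTS13 region, against 84.7% of all. Both ZEB1 regions overlapped INTS13 (90.7% of all ZEB1 regions), and 0 of 2 ZNF609 regions did (86.4% of all). In dense bins, where SMC3, STAG2 and WAPL lie, the regions of all proteins crowd together, and the part of this in the overlaps was not tested.

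Peaks on these genes recurred less between replicates than peaks at large in every list, as a description with no test. For INTS13 54.3% of 173 body peaks in list 1 and 56.7% of 164 in list 2 overlapped a peak of the other list, against 59.6% and 66.7% of all peaks. For HDGF the shares were 21.2% of 184 and 35.7% of 112, against 33.6% and 45.6%. INTS11 had 22.5% of 89 and 39.6% of 53, against 31.4% and 61.7%. For ZEB1, 2 of 18 and 2 of 19 peaks were shared, against 32.7% and 39.0% of all, and for ZNF609 2 of 31 and 2 of 7, against 24.3% and 45.7%. The peaks were also modest in height: median fold ranks lay between the 31.8th and 54.3rd percentiles of their lists.

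By the bases covered, libraries of the same protein overlapped more over these genes on average than libraries of different proteins, but not by every measure. The Jaccard index, the bases covered by both lists divided by those covered by either, averaged 0.116 ± 0.109 (SD, n = 5 pairs) for replicates of 1 protein and 0.0458 ± 0.0427 (SD, n = 40 pairs) for libraries of different proteins. The difference of 0.0700 had a one-sided p of 0.00106 in an exact permutation test over all ways of pairing the 10 libraries, the smallest p this design allows. The lists covered from 3041 bp (ZNF609 list 2) to 123988 bp (INTS13 list 2) of these loci. A list that covers few bases cannot reach a high index with one that covers many. The test does not separate shared positions from like amounts of cover. Without INTS13 replicate 1 the difference was 0.0294 (exact permutation p = 0.0296), and without INTS13 replicate 2 it was 0.0309 (exact permutation p = 0.0307), both lower than the value from all libraries by more than 1.5 times. The call was lost when the index was replaced by the share of peaks that overlap (difference 0.0250, exact permutation p = 0.337), with peaks of −log10 q of 5 or more (0.00443, exact permutation p = 0.3333) and with the 10000 peaks of highest −log10 p (0, exact permutation p = 1). The INTS13 replicates had an index of 0.299. For INTS11 it was 0.107 and for HDGF 0.106, both below the mean of 0.131 (range 0.0860 to 0.169) of the 4 pairs of an INTS13 with an INTS11 library. ZEB1 replicates had 0.0504 and ZNF609 replicates 0.0167.

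**Figure D5:**
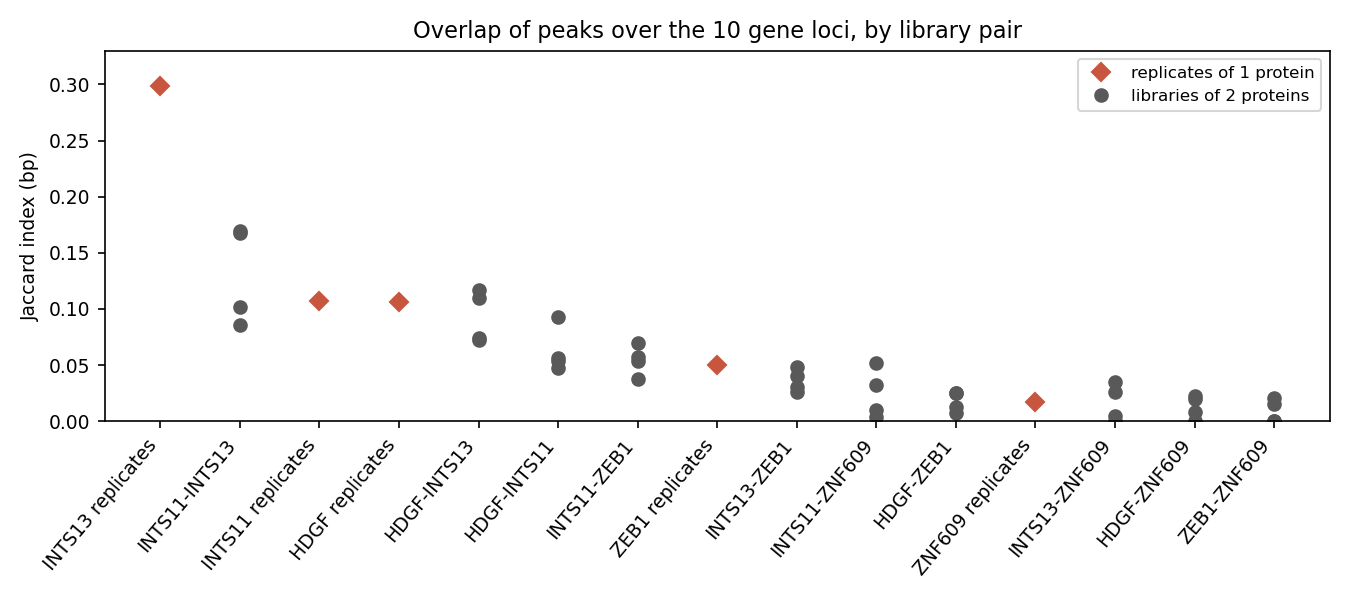
Jaccard index in bp (y axis) of the peaks of 2 libraries over the 10 genes with 1 kb at both ends, for each combination of proteins (x axis). Red diamonds are the replicates of 1 protein and grey circles are pairs of libraries of 2 proteins. The INTS13 replicates, at 0.299, stand above every other pair, and INTS13 with INTS11 reaches 0.169.

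Genes of related complexes were counted the same way from lists of named genes. The shares of all protein-coding genes with a region at an end were 63.7% (INTS13), 17.5% (INTS11), 22.2% (HDGF), 3.79% (ZEB1) and 1.57% (ZNF609). Of 10 cohesin regulators (acetyltransferases, deacetylase, protectors, separase and others), INTS13 had regions at an end of 7, INTS11 of 3, HDGF of 4, ZEB1 of 0 and ZNF609 of 1. Of 8 condensin genes, which encode the sister complex that compacts mitotic chromosomes, it was 5, 3, 5, 0 and 0. The 7 genes of the SMC5/6 complex, a DNA repair relative, had 5, 1, 0, 0 and 0, and the 4 germline cohesin genes had 4, 0, 1, 0 and 0. ESCO1, the acetyltransferase of SMC3, had 4 proteins at its ends (INTS13, INTS11, HDGF and ZNF609). HDAC8, the deacetylase of SMC3, and the condensin genes NCAPG2, NCAPD2 and NCAPH2 had 3 (INTS13, INTS11 and HDGF). HDGF density above the flanks in both lists was found for 7 of the 10 regulators, 6 of the 8 condensin genes, 4 of the 7 SMC5/6 genes and 0 of the 4 germline genes. It was found for 9 of the 10 cohesin and loader genes and for 36.8% of all protein-coding genes. No test of the difference between these lists was made.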

How the data were processed

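Per the submitters' processing notes, the pipeline used Trimmomatic, Bowtie and MACS2, with FastQC and Picard; their settings, control and build were not given in the sources used here. Since the authors deposited 1 peak list per library, peaks were not called on pooled replicates. The fold of a peak is the authors' deposited ratio of summit height to background, the p-value and q-value are the deposited −log10 values, and the score deposited with them is 10 times the −log10 q cut to a whole number. Gaps in the peak numbers show that peaks were removed before deposit, by a rule not stated. GRCh38 was taken as the build from the contig names.

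Peaks on chromosomes 1 to 22 and X were counted with Python 3.11.15, numpy 2.4.6 and pandas 2.3.3. A peak that touched a gene counted for its body, and an overlap of 1 bp sufficed. Gene coordinates and symbols came from the RefSeq table for GRCh38, and strands from the promoter table, which held 15812 of the 19970 genes. Flanks were 500 kb on each side. The counts have no test, and percentages after them are shares of all protein-coding genes counted the same way. A test of 2 against 2 libraries cannot go below 0.3333, so the Jaccard index was tested over all 10 libraries. The scripts were tested on simulated data.

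The genes and comparison lists, and the rules for naming genes, were chosen with earlier results of these data known. All 10 genes were named, with the genes of comparison lists that had regions of 3 or more proteins at an end; the genes most like NIPBL in coverage, also part of the rule, are not reported here. Promoters were shown for NIPBL and the 3 others whose gene-start promoter met peaks in the most lists; another STAG2 promoter inside the gene also met 4 lists. Alternatives were other windows, stricter peaks and left-out libraries or genes.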

Additional observations from a re-analysis of the deposited data

How the results depend on the processing

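Of 93 alternatives over 16 results, 53 gave the same call or a count within 1.5 times. With peaks of −log10 q of 5 or more, genes with a reproducible region at an end were 2 for INTS13 (18.1% of all genes), 0 for INTS11 (2.83%) and 0 for HDGF (2.66%). In the body INTS13 had 1 (22.1%) and the others 0 (INTS11 3.56%, HDGF 3.93%, ZEB1 0.356%, ZNF609 0.190%). With the 10000 peaks of highest −log10 p, all of these were 0 (1.17% to 5.40% of all genes). The HDGF count at ends was 0 with windows of 500 bp and 8 with windows of 5 kb (38.2% of all genes). With 1 list alone, counts at ends ranged from 1 to 4 for HDGF, 2 to 3 for ZEB1 and 0 to 1 for ZNF609, and in the body from 6 to 7 for INTS11, 5 to 7 for ZEB1 and 3 to 6 for ZNF609. Flank alternatives were added after seeing the data. With flanks of 100 kb, genes above their flanks in both lists were 0 for INTS13 (37.1% of all genes), 1 for INTS11 (18.2%) and 8 for HDGF (33.4%). With −log10 q of 5 or more they were 1 for INTS11 (3.06%) and 0 for HDGF (5.03%), ZEB1 (0.456%) and ZNF609 (0.295%). With 1 list alone they ranged from 1 to 2 for INTS13, 3 to 5 for ZEB1 and 2 to 5 for ZNF609. The cause of these changes was not tested, other than that stricter lists hold fewer peaks: at −log10 q of 5 or more, the 10 bodies held 19 and 18 INTS13 peaks, 6 and 2 INTS11 peaks, 0 and 4 HDGF peaks and 0 of ZEB1 and ZNF609.

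The Jaccard difference within minus between proteins was 0.00443 with −log10 q of 5 or more (exact permutation p = 0.3333), 0 with the top 10000 peaks (p = 1 in the exact permutation test) and 0.0250 with the share of overlapping peaks (exact permutation p = 0.337). Leaving out a library gave 0.0294 to 0.0896, and leaving out a gene 0.0595 to 0.0744, each past the threshold of 0.05. No paired analysis was possible because the counts come from per-library lists and no test, and the labels do not say that a replicate number marks a shared culture. Read depth is unknown, so an absent peak does not show an absent protein.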
